A study of Mus musculus with 9 samples.

Results

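The lysosomal genes described here are 36 named genes, all of which had a mean of at least 1 FPKM over 9 libraries (FPKM is a fragment count scaled by transcript length and by the mapped fragments of the library), of 23234 gene symbols and 10521 that reached that mean. They are 10 cathepsins, 3 further proteins of proteolysis, 7 glycosidases, 6 lipid enzymes and carriers, 7 membrane proteins and 3 others, namely the transcription factor Tfeb, the growth factor precursor Grn and the proton pump subunit Atp6v1h. The members were chosen by name, with earlier results of these data known, and by this minimum. Ctsk lay closest to the minimum, at a mean of 1.04 FPKM, followed by Gla at 3.81 FPKM, and no named gene fell outside it.

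RNA was sequenced from CD11b+ monocytes of peripheral blood, split by Gr-1, an epitope shared by Ly6C and Ly6G, in C57BL/6 mice 8 months old. All animals carried Yaa, a Y-linked duplication of an X chromosome segment, and the genotypes differed in Fcgr2, the gene of the inhibitory IgG receptor CD32. The 4 Gr-1+ libraries were 2 labelled null (Fcgr2-/-), 1 labelled CEBPaCre (CEBPaCre;Fcgr2 fl/fl) and 1 labelled CD19Cre (CD19Cre;Fcgr2 fl/fl). The 5 Gr-1- libraries were 1 each of null, CEBPaCre, CD11cCre (CD11cCre;Fcgr2 fl/fl), CD19Cre and floxed (Fcgr2 fl/fl without Cre). Cebpa is a gene of the myeloid lineage, CD11c marks dendritic cells and part of the monocytes, and the CD19Cre line deletes in B cells, so the CD19Cre and floxed mice are by label intact for Fcgr2 in monocytes. The labels do not give the number of animals per library, nor whether the libraries are from different animals. A p therefore reflects the spread among these libraries, which may be technical.

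Lysosomes are acidic organelles in which hydrolases break down proteins, glycans and lipids taken up by phagocytosis or delivered by autophagy. In monocytes and macrophages they also process antigen and digest engulfed cells and microbes. Many lysosomal genes carry an E-box of the sequence CACGTG near the start site, within a motif bound by Tfeb and the related factors Tfe3, Mitf and Tfec.

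The promoter windows of RefSeq (build GRCm38.p6, from 250 bases before to 50 after the start) held 30 of the 36 genes, in 35 windows. The bases CACGTG read the same on both strands, and they occurred in the windows of 10 of these 30 genes (33.3%), against 8.09% of all 27025 genes with a window and 12.2% of the 7382 tested genes with one. The longer GTCACGTG, on either strand, was in 8 of the 30 (26.7%, against 2.55% of all and 5.35% of tested genes), and the palindrome TCACGTGA in 5 (16.7%, against 1.12% and 2.49%). The extension of GTCACGTG to a palindrome of 10 bases was also searched. It occurred in 0 of the 30 (0%, against 0.370% of all and 0.975% of tested genes). With shares this low, 30 genes are too few to show a lower share. All the longer motifs contain CACGTG and can overlap each other. A match of letters is a description and not a measured site of binding. Stretches upstream of the start are shown for 4 genes that were higher in Gr-1+ monocytes (Gla, Ifi30, Glb1 and Ctsl) and for a pair that did not pass the test, the membrane proteins Lamp1 and Mcoln1, 5′ to 3′ on the strand of the gene, with each CACGTG in capitals.
Gla (chrX:134601154-134601255, minus strand): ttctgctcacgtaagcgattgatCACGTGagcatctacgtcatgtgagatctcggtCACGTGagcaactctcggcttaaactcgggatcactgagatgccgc
Ifi30 (chr8:70766814-70766899, minus strand): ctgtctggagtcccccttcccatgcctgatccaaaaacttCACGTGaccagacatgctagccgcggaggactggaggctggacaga
Glb1 (chr9:114400990-114401075, plus strand): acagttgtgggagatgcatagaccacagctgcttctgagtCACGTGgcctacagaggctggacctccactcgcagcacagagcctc
Ctsl (chr13:64370711-64370770, minus strand): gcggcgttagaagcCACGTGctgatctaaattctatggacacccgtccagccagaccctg
Lamp1 (chr8:13159060-13159160, plus strand): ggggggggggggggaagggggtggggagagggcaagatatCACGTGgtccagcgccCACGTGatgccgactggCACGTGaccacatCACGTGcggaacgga
Mcoln1 (chr8:3500408-3500518, plus strand): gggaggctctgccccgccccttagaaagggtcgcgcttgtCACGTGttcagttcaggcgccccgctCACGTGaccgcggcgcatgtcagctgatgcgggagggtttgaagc
The Lamp1 stretch held 4 E-boxes, the most of the 10 genes, and Gla, Ctsd and Mcoln1 held 2 each upstream of the start. Of the 9 genes higher in Gr-1+ that had a window, 4 carried CACGTG. Lamp1, Mcoln1, Ctsa, Ctsd, Lgmn and Gaa carried it and did not pass the subset test, so the genes with the E-box stood on both sides of that threshold.

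**Figure D1:**
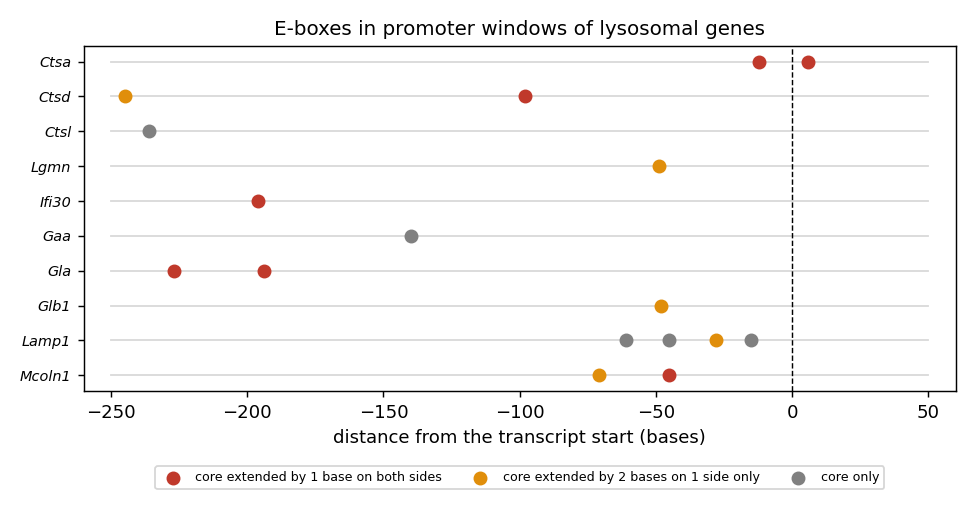
Positions of the CACGTG core relative to the transcription start site (x axis, bases, start at 0) for each of the 10 genes with a match (y axis), coloured by how far the match extends beyond the core. The 4 matches of Lamp1 lie within 61 bases upstream of the start, and those of Ctsl and Gla lie further upstream.

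The read depth is unknown. FPKM summed to 411256 to 560116 per library, with 5123 to 10140 genes listed at 0. Both CD19Cre libraries stood apart: their share of summed FPKM from ribosomal protein genes was 1.99% and 2.28%, whereas the other 7 had 3.68% to 7.74%. Fcgr2b, as Fcgr2 is named in the files, ranged from 83.0 to 201 FPKM in libraries labelled null or CEBPaCre and from 74.9 to 195 FPKM in those labelled CD19Cre or floxed, so its level did not follow the labels. The files do not say which exons were deleted, and genotypes are therefore named only as labelled. Classical monocyte markers (9 genes, led by Hp) summed to 3876 to 5098 FPKM in Gr-1+ against 573 to 1417 in Gr-1- libraries, and nonclassical markers (10 genes, led by Nr4a1) to 539 to 773 and 2127 to 3829 FPKM. Hp alone was at 785 to 1552 against 470 to 1264 FPKM, and these ranges overlapped. Neutrophil markers (13 of 14 listed genes, led by S100a8) summed to 746 to 2389 FPKM in Gr-1+ against 71.8 to 155 in Gr-1-, and NK cell markers (9 genes, led by Gzma) to 1.24 to 4.18 and 23.9 to 457 FPKM. S100a8 alone was at 380 to 1423 against 5.71 to 12.4 FPKM. B cell (6 genes, led by Cd79b, 8.58 to 18.05 against 29.7 to 75.4 FPKM), T cell (Lck, 5 of 6 genes), dendritic cell (Cd209a), platelet (Ppbp), erythroid (Hba-a2) and eosinophil and basophil (Ear1) markers were also detected, and no gene of these lists was at 0 in every library. Itgam, which encodes CD11b, was at 61.7 to 68.3 FPKM in the 3 libraries labelled CD19Cre or floxed, 136 to 186 FPKM in the 5 labelled null or CEBPaCre and 157 FPKM in CD11cCre.

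The first question was how the lysosomal genes differ between Gr-1+ and Gr-1- monocytes. Of these, 10 were higher in Gr-1+: the cathepsins Ctsc, Ctsh and Ctsl, the thiol reductase Ifi30, the glycosidases Gla and Glb1, the lipid carriers Npc2 and Psap, the membrane protein Lamp2 and Grn. In the other direction the test called only Ctsk, and the remaining 25 missed its threshold (limma, adjusted p at or under 0.05). Across all 10436 tested genes, 14.8% passed, with 8.84% higher in the Gr-1+ subset and 5.95% in the Gr-1- subset. The log2 difference was above 0 for 27 of the 36, with a median of 0.42 against 0.09 for all tested genes. The groups did not overlap for 13 genes in the direction of Gr-1+ (10.2% of all tested genes) and for 1 in the direction of Gr-1- (6.26%). Without both CD19Cre libraries, 12 of the 36 passed toward Gr-1+ (10.4% of all genes) and 1 toward Gr-1- (5.54%). The summed neutrophil markers were higher in every Gr-1+ library and the NK cell and B cell markers in every Gr-1- library, and their part in these differences was not tested. In bulk libraries such as these, fewer cells of a type and less RNA per cell cannot be told apart.

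The scale between libraries bore on these counts. With libraries scaled to a common upper quartile of their values above 0, the median of all tested genes moved by -0.31 on the log2 scale. Genes listed at 0, which this quartile leaves out, numbered 5693 to 10140 in Gr-1+ and 5123 to 8827 in Gr-1- libraries. Under this scaling 4 of the 36 passed toward Gr-1+ (4.93% of all genes) and 3 toward Gr-1- (11.1%). Ctsc, Ctsh, Glb1 and Npc2 were the 4, and Ctsk, Ctsb and Tfeb the 3. Rescaling to a common sum moved the median by -0.14 and gave 11 (8.22%) and 2 (9.31%), and median-ratio scaling moved it by -0.10 and gave 14 (9.78%) and 2 (9.09%). Over all tested genes the calls split into 923 toward Gr-1+ and 621 toward Gr-1- as deposited, 858 and 972 with a common sum, 1021 and 949 with median-ratio scaling and 514 and 1158 with the upper quartile.

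**Figure D2:**
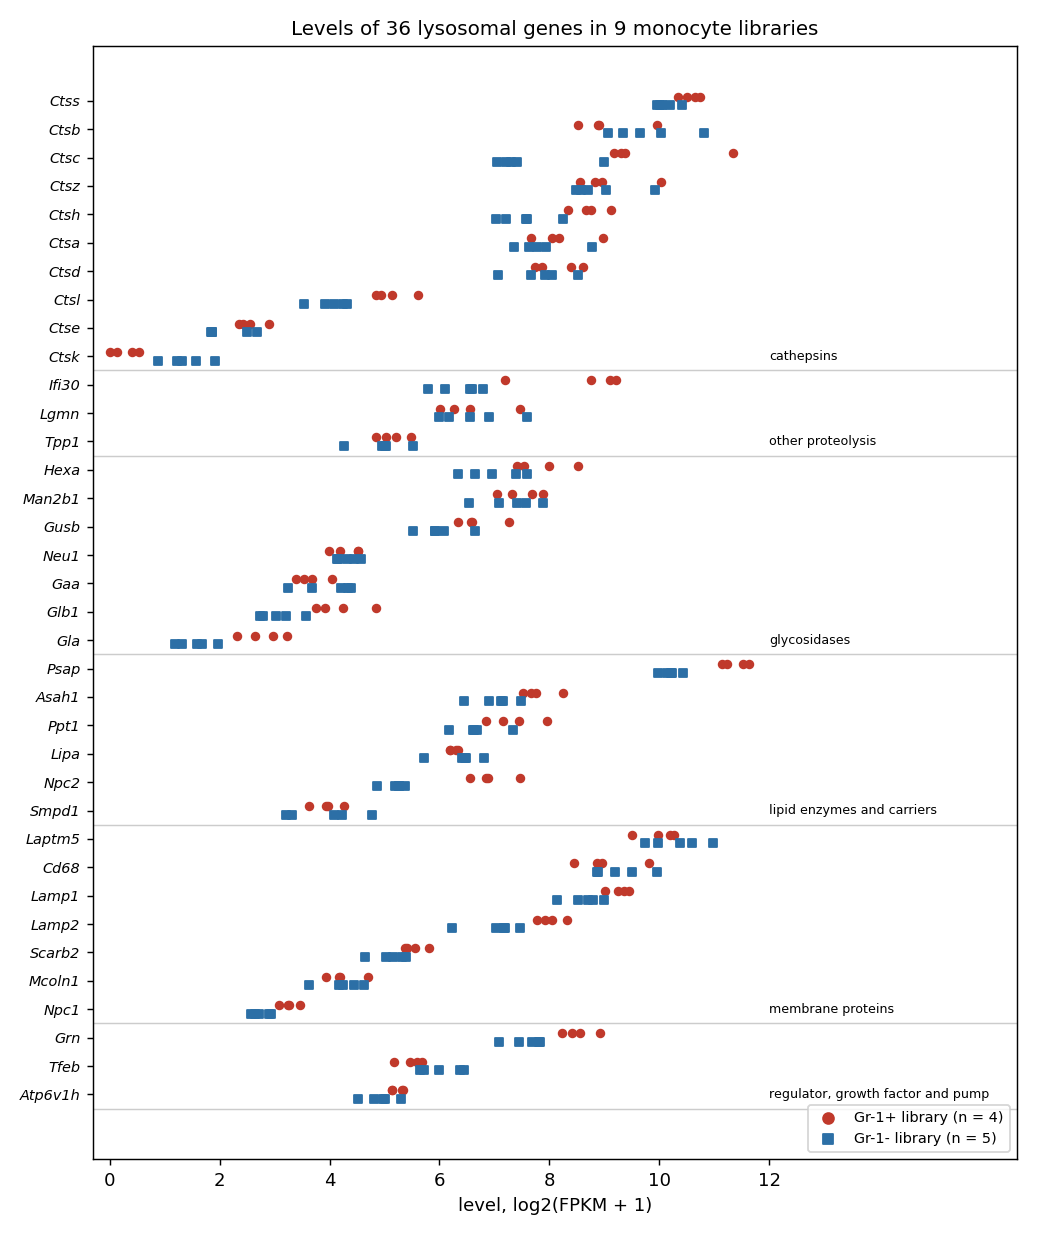
Level of each of the 36 genes (y axis, by class) as log2(FPKM + 1) (x axis) in the 9 libraries, with red circles for Gr-1+ and blue squares for Gr-1- libraries. The 10 genes higher in Gr-1+ include Psap at 2262 to 3171 FPKM and Gla at 3.98 to 8.31 FPKM.

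Cathepsins are the main lysosomal proteases, and the 10 here covered a wide range of levels. Ctss, a cysteine protease that trims the invariant chain of MHC class II, had the highest mean of them in each subset, at 1508 ± 177 (SD, 4 libraries) against 1121 ± 145 FPKM (5 libraries) for Gr-1+ and Gr-1-. Its subsets overlapped, and its log2 difference of 0.43 did not pass (limma adjusted p = 0.202). Ctsc, the dipeptidase that activates the granule serine proteases, was at 626 and 576 FPKM in the null Gr-1+ libraries, 660.5 in CEBPaCre and 2585 in CD19Cre. Its Gr-1- levels were 148 FPKM in null, 169.7 in CEBPaCre, 156 in CD11cCre, 506 in CD19Cre and 131 in floxed. Every Gr-1+ library lay above every Gr-1- library, and in each subset the CD19Cre library lay far above the rest. The fold was 4.60 (log2 difference 2.20 ± 0.51, SE, limma adjusted p = 0.0136), and without both CD19Cre libraries it was 4.10 (adjusted p = 0.000122).

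Ctsh, an aminopeptidase and a further cysteine cathepsin, was at 404 and 320.5 FPKM in the null Gr-1+ libraries, 434 in CEBPaCre and 556 in CD19Cre. In Gr-1- it was at 130.2 FPKM in null, 192 in CEBPaCre, 189 in CD11cCre, 303 in CD19Cre and 147 in floxed. The subsets did not overlap, with a fold of 2.28 (adjusted p = 0.0135). Ctsl, an endopeptidase, was less abundant, at 47.7 and 34.2 FPKM in null, 27.8 in CEBPaCre and 29.6 in CD19Cre of Gr-1+. It was at 18.9 FPKM in null, 15.9 in CEBPaCre, 10.6 in CD11cCre, 17.9 in CD19Cre and 14.1 in floxed Gr-1- libraries. Here the CD19Cre libraries did not stand out, and the fold was 2.16 (adjusted p = 0.0066). With the upper quartile scaling the adjusted p of Ctsl was 0.166.

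Ctsk, best known as the collagenase of osteoclasts, was near the lower end of the data. It was at 0.44 and 0.10 FPKM in null, 0.32 in CEBPaCre and listed at 0 in CD19Cre of Gr-1+, against 1.99, 1.50, 0.84, 2.80 and 1.35 FPKM in null, CEBPaCre, CD11cCre, CD19Cre and floxed Gr-1-. All Gr-1- libraries lay above all Gr-1+ libraries (log2 difference of FPKM + 1 of -1.12 ± 0.23, adjusted p = 0.00706), and with a minimum of 5 FPKM Ctsk was not tested. Ctsb, an abundant cysteine protease, had the opposite order to Ctsc in its means, at 578 ± 283 against 965 ± 505 FPKM for Gr-1+ and Gr-1-. It did not pass (log2 difference -0.71 ± 0.39, adjusted p = 0.28). With genotype as a block (adjusted p = 0.0323), library weights (0.0378) and the upper quartile scaling (0.0146) it passed. The ratio of Ctsb to Ctsc within a library, which no scaling between libraries can change, ran from 0.385 to 0.764 in Gr-1+ and from 3.56 to 6.68 in Gr-1-. The carboxypeptidases Ctsa and Ctsz and the aspartic protease Ctsd had log2 differences of 0.15 to 0.32 and did not pass. Ctse, a further aspartic protease, was at 4.13 to 6.43 against 2.60 to 5.38 FPKM and did not pass either, except with genotype as a block (adjusted p = 0.031).

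Ifi30 is the interferon-inducible thiol reductase that opens disulfide bonds of antigens in the lysosome. It was at 590.4 and 428 FPKM in null, 548 in CEBPaCre and 145 in CD19Cre of Gr-1+. In Gr-1- it was at 110.2 FPKM in null, 95.6 in CEBPaCre, 67.8 in CD11cCre, 54.3 in CD19Cre and 93.5 in floxed. The CD19Cre library was the lowest of each subset, the reverse of Ctsc, yet the subsets did not overlap. The fold was 4.57 (log2 difference 2.19 ± 0.40, adjusted p = 0.00361) and 5.67 without the CD19Cre libraries (adjusted p = 0.00014), while the upper quartile scaling gave an adjusted p of 0.0514. The asparaginyl endopeptidase Lgmn (102 ± 51.1 against 108 ± 52.5 FPKM) and the tripeptidase Tpp1 (34.8 ± 6.84 against 31.2 ± 9.35 FPKM) did not pass. The ratio of Ifi30 to Lgmn within a library was 6.38 to 7.22 in the 3 Gr-1+ libraries labelled null or CEBPaCre, 0.820 in the CD19Cre one and 0.282 to 1.56 in Gr-1-.

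Glycosidases remove sugars from glycoproteins and glycolipids, and 2 of the 7 were higher in Gr-1+ (8.84% of all tested genes). Gla, the alpha-galactosidase lost in Fabry disease, was at 8.31 and 5.24 FPKM in null, 3.98 in CEBPaCre and 6.83 in CD19Cre of Gr-1+. It was at 2.94, 2.19, 1.51, 2.00 and 1.29 FPKM in null, CEBPaCre, CD11cCre, CD19Cre and floxed Gr-1-, with no overlap (fold 2.35, adjusted p = 0.00434). Glb1, the beta-galactosidase that acts on GM1 ganglioside, was at 14.0 and 12.6 FPKM in null, 18.1 in CEBPaCre and 27.8 in CD19Cre of Gr-1+. In Gr-1- it was at 5.66, 7.12, 8.22, 10.9 and 5.88 FPKM in the same order of genotypes as Gla, again with no overlap (fold 2.19, adjusted p = 0.0132). Hexa, a subunit of beta-hexosaminidase, was at 244 ± 89.6 against 133 ± 46.8 FPKM, and the beta-glucuronidase Gusb was at 106 ± 32.6 against 65.9 ± 20.2 FPKM. Both missed the threshold (adjusted p = 0.0939 and 0.124), and both passed with genotype as a block (adjusted p = 0.00409 and 0.0166). Median-ratio scaling (0.0255 and 0.0398) and library weights (0.0493 and 0.0433) also made them pass, and the upper quartile scaling did not. The glycogen-degrading Gaa, the mannosidase Man2b1 and the sialidase Neu1 had log2 differences of -0.31, 0.19 and -0.02 and did not pass.

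Npc2, the soluble protein that hands cholesterol to Npc1 for export, had the smallest p of the 36. It was at 117 and 114 FPKM in null, 176 in CEBPaCre and 93.0 in CD19Cre of Gr-1+. Its Gr-1- levels were 28.0 FPKM in null, 37.3 in CEBPaCre, 40.3 in CD11cCre, 37.4 in CD19Cre and 35.4 in floxed. The lowest Gr-1+ library was above every Gr-1- library, and the fold was 3.37 (log2 difference 1.75 ± 0.22, adjusted p = 0.000295). Npc2 passed under all 20 alternatives, with adjusted p from 3.55e-05 to 0.00846. Its membrane partner Npc1 was at 8.63 ± 1.02 against 5.79 ± 0.75 FPKM; these groups did not overlap, but the difference missed the threshold (adjusted p = 0.0638).

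Psap, the precursor of the saposins that present sphingolipids to their hydrolases, was the most abundant of the 36 in Gr-1+. It was at 2405 and 2262 FPKM in null, 2952 in CEBPaCre and 3171 in CD19Cre of Gr-1+, against 1132, 1203, 1383, 1178 and 1003 FPKM in null, CEBPaCre, CD11cCre, CD19Cre and floxed Gr-1-. The subsets did not overlap, with a fold of 2.28 (adjusted p = 0.00303), and the upper quartile scaling gave an adjusted p of 0.0722. The acid ceramidase Asah1 was at 226 ± 52.3 against 132 ± 33.4 FPKM and missed the threshold (adjusted p = 0.0582). It passed with genotype as a block (adjusted p = 0.0143), median-ratio scaling (0.0104), library weights (0.0237) and a common sum (0.043). Without both CD19Cre libraries it passed too (0.0412), but not with the upper quartile scaling. The palmitoyl thioesterase Ppt1 (adjusted p = 0.161), the acid lipase Lipa (0.789) and the sphingomyelinase Smpd1 (0.966) did not pass.

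**Figure D3:**
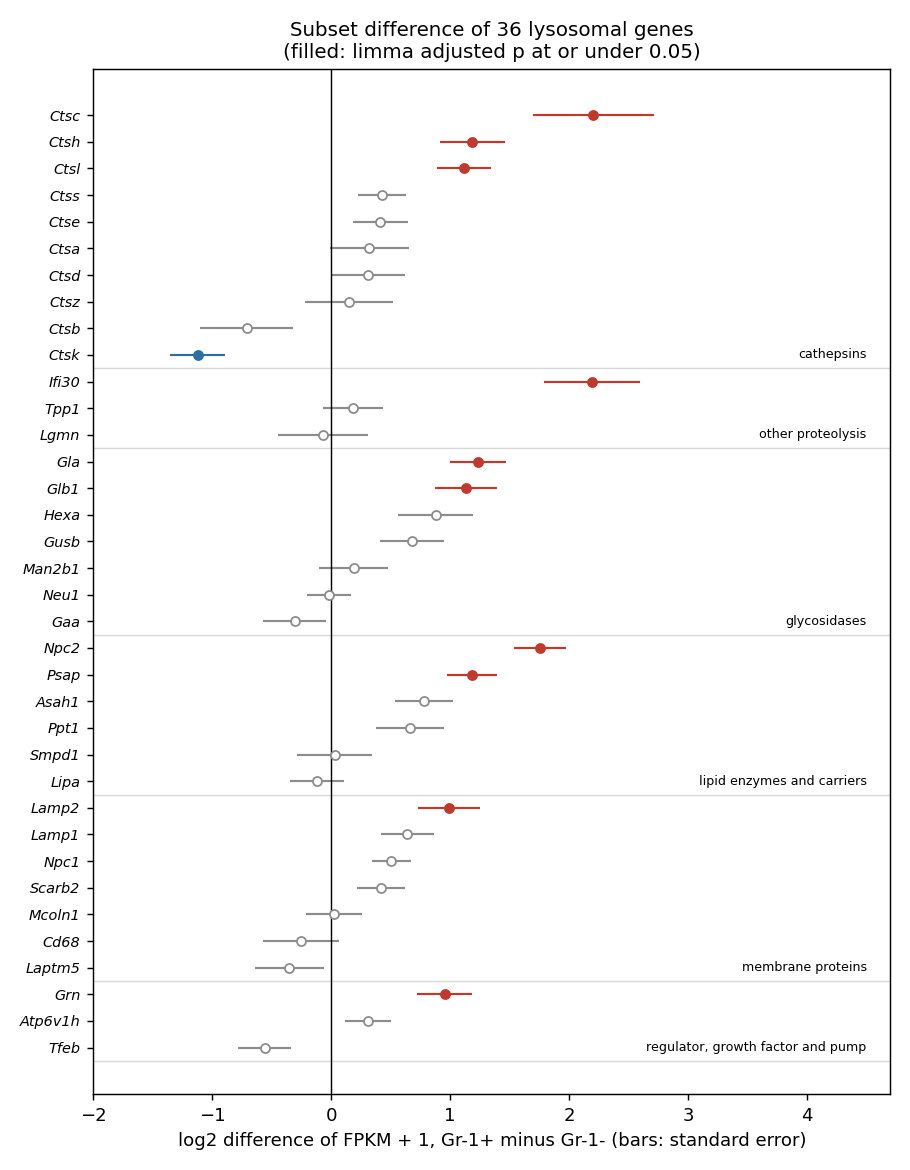
Log2 difference of Gr-1+ minus Gr-1- (x axis, log2 of FPKM + 1) with SE for each of the 36 genes (y axis), by class, with genes that passed the test marked. Ctsc and Ifi30 have the largest differences, at 2.20 and 2.19, and Ctsk the lowest, at -1.12.

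Among the membrane proteins, Lamp2, which lines the lysosomal membrane and acts in chaperone-mediated autophagy, was at 263 and 218 FPKM in null, 239.6 in CEBPaCre and 317 in CD19Cre of Gr-1+. Its Gr-1- levels were 129, 143, 145, 177 and 74.3 FPKM in null, CEBPaCre, CD11cCre, CD19Cre and floxed. The groups did not overlap (fold 1.99, log2 difference 0.99 ± 0.26, adjusted p = 0.0249). Leaving out null replicate 1 of Gr-1+, CEBPaCre of Gr-1+, CD19Cre of Gr-1+ or null of Gr-1- gave adjusted p of 0.0634, 0.0564, 0.0528 and 0.0529. Lamp1, its close relative, was at 619 ± 76.8 against 402 ± 86.0 FPKM, also without overlap, and missed the threshold (adjusted p = 0.0842). It passed with genotype as a block (adjusted p = 0.0422), median-ratio scaling (0.0258) and library weights (0.0336). Cd68, a macrophage sialomucin of the lysosome (553 ± 239 against 646 ± 219 FPKM), and Laptm5, a transmembrane protein of blood cells (1033 ± 228 against 1351 ± 461 FPKM), had the larger mean in Gr-1- but missed the threshold. Psap to Laptm5 within a library ran from 2.39 to 3.13 in Gr-1+ and from 0.685 to 1.17 in Gr-1-. Lamp1 to Cd68 ran from 0.776 to 1.48 in Gr-1+ and from 0.513 to 0.778 in Gr-1-, so these ranges overlapped. The receptor of beta-glucocerebrosidase, Scarb2, and the calcium channel Mcoln1 had log2 differences of 0.42 and 0.02 and did not pass.

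Grn, the precursor of progranulin and its lysosomal granulin peptides, was at 373 and 337 FPKM in null, 482 in CEBPaCre and 297 in CD19Cre of Gr-1+. In Gr-1- it was at 173, 203, 224, 225 and 135 FPKM in null, CEBPaCre, CD11cCre, CD19Cre and floxed, with no overlap (fold 1.94, adjusted p = 0.0168). Without CEBPaCre of Gr-1+ the adjusted p was 0.0622. Tfeb, the transcription factor of lysosomal genes, was at 50.2 and 35.3 FPKM in null, 47.1 in CEBPaCre and 43.2 in CD19Cre of Gr-1+. Its Gr-1- levels were 51.8, 63.0, 81.5, 85.9 and 49.3 FPKM in null, CEBPaCre, CD11cCre, CD19Cre and floxed. The groups overlapped through null replicate 1 and the floxed library, and the log2 difference of -0.56 ± 0.22 did not pass (adjusted p = 0.132). It passed in the direction of Gr-1- with a common sum, the upper quartile scaling and median-ratio scaling (adjusted p = 0.00787, 0.00565 and 0.00739). Atp6v1h, a subunit of the V-ATPase that acidifies the lysosome, was at 36.7 ± 2.87 against 29.8 ± 6.10 FPKM and did not pass (adjusted p = 0.344).

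As a whole the 36 genes held 2.35% ± 0.419 (SD, n = 4) of all FPKM in the Gr-1+ subset against 1.81% ± 0.279 (n = 5) in the Gr-1- subset, with ranges of 2.08% to 2.97% and 1.46% to 2.18% that overlapped. The largest share in each subset was that of the CD19Cre library. The larger classes differed. Lipid enzymes and carriers held 0.552% to 0.717% in Gr-1+ and 0.298% to 0.365% in Gr-1-. Cathepsins held 0.769% to 1.39% and 0.601% to 1.05%, and membrane proteins 0.425% to 0.580% and 0.407% to 0.695%, so these ranges overlapped. When genotype was a block, 15 of the 36 were higher in Gr-1+ (16.0% of all genes) and 2 in Gr-1- (9.97%). Without the CD11cCre and floxed libraries, which had no Gr-1+ counterpart, 5 were higher in Gr-1+ (4.95% of all genes) and 1 in Gr-1- (4.31%). Ctsc, Ctsh, Glb1, Grn and Lamp2 then missed the threshold, with Ctsc at a log2 difference of 1.92 (adjusted p = 0.0961).

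**Figure D4:**
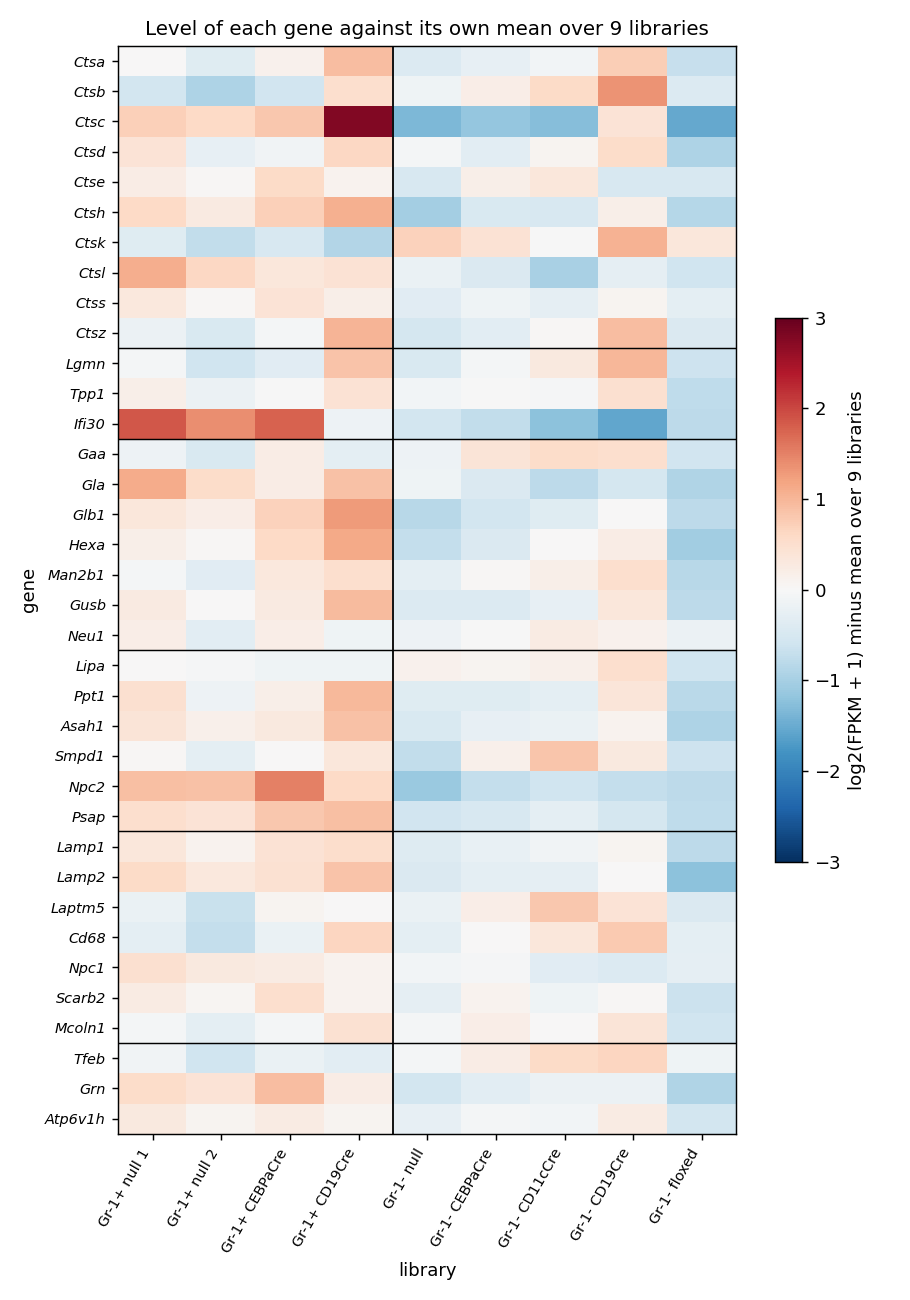
Level of each of the 36 genes (rows, by class) in the 9 libraries (columns), as log2(FPKM + 1) minus the gene's mean over the libraries. Within each subset the CD19Cre column is the highest for Ctsc, at 2585 and 506 FPKM, and the lowest for Ifi30, at 145 and 54.3 FPKM.

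Other genes of the pathway were taken from lists that held none of the 36. Of 97 tested genes (108 listed), 20 passed toward Gr-1+ and 10 toward Gr-1-, with a median log2 difference of 0.30, where 8.84% and 5.95% of all tested genes passed. With genotype as a block these counts were 34 and 11 (16.0% and 9.97% of all), and with the upper quartile scaling 12 and 14 (4.93% and 11.1%), with a median of -0.06. Among 15 V-ATPase subunits, 2 were higher in Gr-1+ and 0 in Gr-1-, namely Atp6v0a1 (9.59 against 4.85 FPKM) and Atp6v1a (50.6 against 25.5 FPKM). Of the other subunits, Atp6ap2 and Atp6v0d1 did not pass (adjusted p = 0.0772 and 0.0627), and both passed with genotype as a block (adjusted p = 0.0331 and 0.0333), where 8 of the 15 were higher in Gr-1+. With the upper quartile scaling 1 was. Of 34 other hydrolases, 5 were higher in Gr-1+ and 4 in Gr-1-. The acid amidase Naaa was 3.39-fold higher in Gr-1+ (148 against 42.9 FPKM) and the sulfatase Galns 3.08-fold, while the acid phosphatase Acp5 (28.5 against 146 FPKM) and the phosphodiesterase Smpdl3b (41.2 against 207 FPKM) differed by 5.08-fold and 4.89-fold in the direction of Gr-1-.

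Of 23 other membrane transport genes, 6 were higher in Gr-1+ and 3 in Gr-1- (8.84% and 5.95% of all tested genes). With the upper quartile scaling these were 2 and 4 (4.93% and 11.1% of all). Sidt2, an RNA and DNA transporter of the lysosome, the sialic acid exporter Slc17a5 and the nucleoside transporter Slc29a3 were higher in Gr-1+, by 2.52-fold, 1.91-fold and 3.09-fold. Slc11a1, the phagosomal metal transporter, was 3.01-fold higher in Gr-1- (87.8 against 268 FPKM). Of 19 genes for sorting and control, 4 were higher in Gr-1+ and 1 in Gr-1- (8.84% and 5.95% of all tested genes). With the upper quartile scaling these were 3 and 2 (4.93% and 11.1% of all). Mitf (3.39 against 0.77 FPKM) and Tfec (6.38 against 0.17 FPKM), relatives of Tfeb, and Rraga, a GTPase that recruits mTORC1 to lysosomes (24.9 against 13.2 FPKM), were higher in Gr-1+. Igf2r, the mannose-6-phosphate receptor that sorts hydrolases, was higher in Gr-1- (0.52 against 2.70 FPKM). Tfe3, chosen after its values were seen, was at 30.3 to 43.7 against 20.0 to 44.3 FPKM and did not pass (adjusted p = 0.601). The ratio of Tfeb to Tfe3 within a library ran from 0.990 to 1.35 in Gr-1+ and from 1.69 to 2.47 in Gr-1-.

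Of 6 tested inhibitors of cathepsins and granule proteases, 3 were higher in Gr-1+ and 2 in Gr-1- (8.84% and 5.95% of all tested genes). The upper quartile scaling also gave 3 and 2 (4.93% and 11.1% of all). The cystatin Cstb (245 against 77.2 FPKM) and the serpin Serpinb1a (29.0 against 5.95 FPKM) were higher in Gr-1+. Serpinb6a was 6.38-fold higher in Gr-1- (7.37 against 53.2 FPKM). Stfa2l1, one of several closely similar stefin A genes whose reads can be shared, was at 0.97 to 4.02 FPKM in Gr-1+ and listed at 0 in all 5 Gr-1- libraries.

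The second question was whether the lysosomal genes differ with Fcgr2 deletion in myeloid cells. The 5 libraries labelled null or CEBPaCre were set against the 3 labelled CD19Cre or floxed, with the subset as a covariate and CD11cCre left out. None of the 36 passed with limma, where 0 of 10429 genes were called (0%), and 1470 genes and 3 of the 36 had an unadjusted p under 0.05. Those 3 were Ifi30 (log2 difference, deleted minus intact, 1.08 ± 0.33), Ctsc (-1.28 ± 0.46) and Ctsz (-0.91 ± 0.34), with adjusted p of 0.306, 0.307 and 0.308. The median over the 36 was -0.11, against -0.03 for all genes. The test of whether the deletion difference depended on the subset called 9 of 10429 genes (0.0863%) and 0 of the 36, with a lowest adjusted p of 0.882 among the 36 and 1 of them at an unadjusted p under 0.05. The intact libraries were only CD19Cre in Gr-1+ but CD19Cre and floxed in Gr-1-. That test therefore cannot separate the subset from the difference of CD19Cre and floxed. The median interaction of the 36 was -0.36, against 0.12 without floxed and -0.73 without CD19Cre of Gr-1-. In the deletion comparison with library weights, 2 of the 36 were higher in intact and 1 in deleted libraries, when 3.19% and 3.26% of all genes were.

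In FPKM as deposited, the CD19Cre and floxed libraries of the intact group lay on opposite sides of the deleted ones in the median of the 36. The median log2 difference (deleted minus intact) was -0.37 without floxed and 0.38 without the CD19Cre libraries. Without floxed it was -0.17 with a common sum, -0.04 with median-ratio scaling and 0.19 with the upper quartile. The side of the CD19Cre libraries thus depended on the scale. For 20 of the 36 genes the CD19Cre library was the highest of Gr-1+ (43.6% of all tested genes) and for 24 the highest of Gr-1- (40.2%). The floxed library was the lowest of Gr-1- for 25 (47.9%), and null replicate 2 the lowest of Gr-1+ for 27 (42.5%). After median-ratio scaling these 4 counts were 17, 15, 19 and 7, and that of null replicate 2 moved most. The shares over all tested genes were not computed after this scaling, so the scaled counts are not set against all genes. Without the floxed library, the comparison of CD19Cre (2 libraries) with null and CEBPaCre (5 libraries) called 24.5% of 10415 genes, 16.8% higher in CD19Cre and 7.68% lower. Of the 36, 10 were higher in CD19Cre (Ctsa, Ctsb, Ctsc, Ctsz, Lgmn, Glb1, Hexa, Gusb, Ppt1 and Cd68) and Ifi30 was lower. With the subsets pooled, the libraries did not overlap for 11 of the 36 in the direction of CD19Cre, as for 21.8% of all genes.

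Ctsc showed the largest of these differences, at 4.16 times the mean of the null and CEBPaCre libraries in Gr-1+ and 3.19 times in Gr-1- (log2 difference, deleted minus CD19Cre, -1.88 ± 0.20, SE, limma adjusted p = 0.00857). Ctsz, an exopeptidase, was at 453 and 377 FPKM in null, 498 in CEBPaCre and 1044 in CD19Cre of Gr-1+. In Gr-1- it was at 358 FPKM in null, 414 in CEBPaCre, 524 in CD11cCre, 972 in CD19Cre and 379 in floxed. The CD19Cre libraries were above all others, with a log2 difference of -1.29 ± 0.21 (adjusted p = 0.00931). The ratio of Ctsz to Ctss within a library was 0.724 and 0.718 in the CD19Cre libraries and 0.285 to 0.496 in the other 7.

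Ctsb followed the same order, at 478 and 368 FPKM in null, 471 in CEBPaCre and 995 in CD19Cre of Gr-1+. Its Gr-1- levels were 643 FPKM in null, 804 in CEBPaCre, 1042 in CD11cCre, 1802 in CD19Cre and 534 in floxed. The CD19Cre libraries were the highest of each subset, 2.27 and 2.49 times the mean of null and CEBPaCre (log2 difference -1.25 ± 0.22, adjusted p = 0.0102). Lgmn (-1.22 ± 0.21), Ctsa (-1.03 ± 0.21) and Cd68 (-0.99 ± 0.23) were also higher in CD19Cre. Ifi30 in CD19Cre was at 0.277 and 0.528 times the mean of null and CEBPaCre (log2 difference 1.40 ± 0.25, adjusted p = 0.0107).

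This CD19Cre pattern also depended on the scale. With the upper quartile scaling, 2 of the 36 (Ctsc and Ctsz) were higher in CD19Cre (1.51% of all genes) and 3 lower (18.3%). With median-ratio scaling 9 were higher (11.4%) and 2 lower (17.4%), and with a common sum 11 were higher (14.1%) and 1 lower (13.8%). The low share of ribosomal protein genes moved with these libraries, and its part was not tested. The 6 B cell markers summed to 12.3 FPKM in the CD19Cre library of Gr-1+, where the other 3 were at 8.58 to 18.05, and to 60.7 FPKM in that of Gr-1-, where the other 4 were at 29.7 to 75.4. Itgam, part of the sort, was lower in the CD19Cre libraries than in null and CEBPaCre (log2 difference, deleted minus CD19Cre, 1.37 ± 0.19, limma adjusted p = 0.00863), and its part was not tested.

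**Figure D5:**
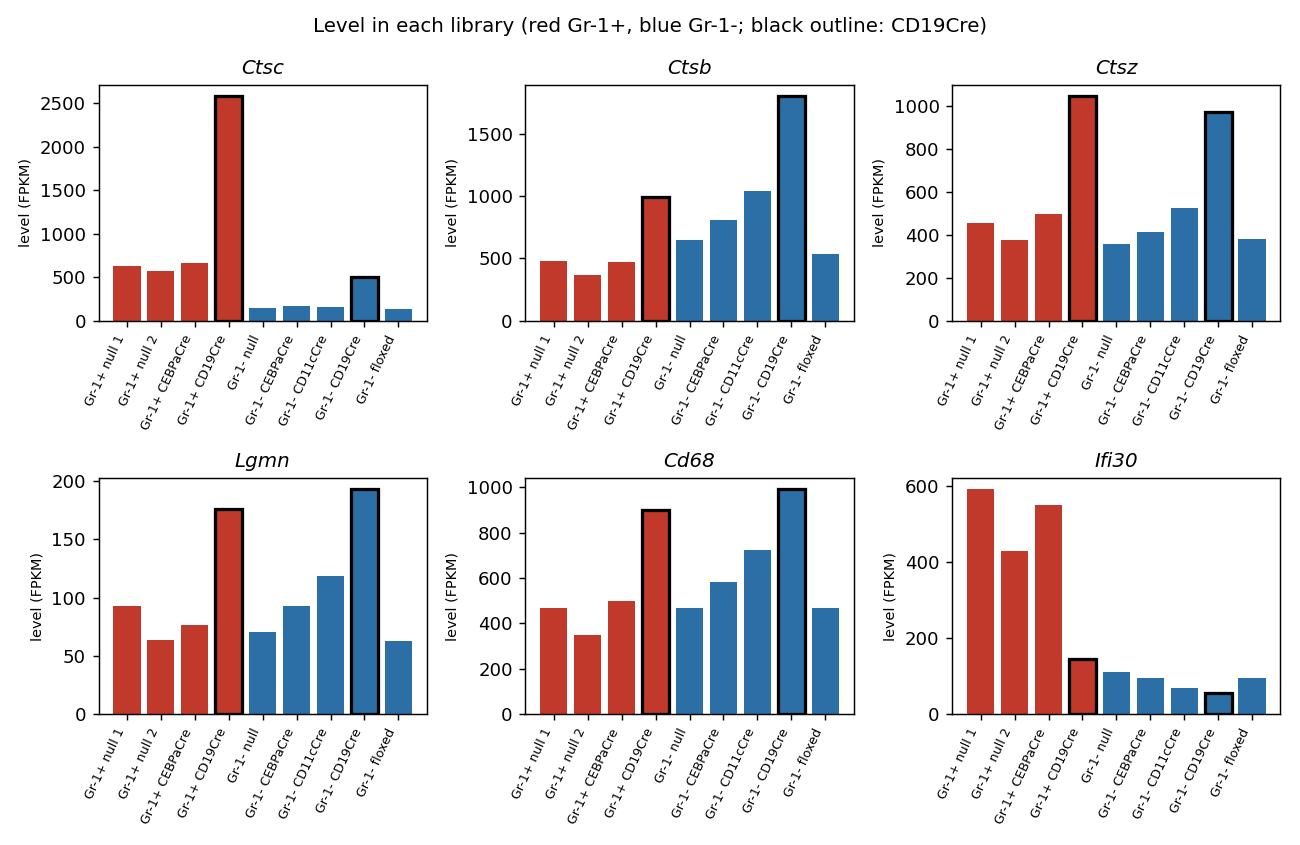
FPKM (y axis, from 0) of 6 genes, Ctsc, Ctsb, Ctsz, Lgmn, Cd68 and Ifi30, with 1 bar for each library (x axis), red for Gr-1+, blue for Gr-1- and outlined for CD19Cre. Within each subset, Ctsc, Ctsb and Ctsz are highest in the CD19Cre library, and Ifi30 is lowest there.

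The floxed library alone, against null and CEBPaCre without the CD19Cre libraries, gave 5 called genes of 10412 (0.0480%) and 0 of the 36, by limma. The log2 difference was above 0, that is higher in the deleted libraries, for 35 of the 36, with a median of 0.38 against 0.23 for all genes. With the subsets pooled, the libraries did not overlap in that direction for 23 of the 36, where 41.1% of all tested genes did the same. The floxed library is Gr-1- and the null and CEBPaCre ones are of both subsets, so subset differences enter this count. A single floxed library of 1 subset stands behind these values, and it was the lowest of Gr-1- for 47.9% of all tested genes. The share of all genes with a difference above 0 was not computed, and other scalings were not fitted here. No difference is therefore read from the 35 of 36. In Gr-1-, the CD11cCre library was the highest for 7 of the 36. The share over all tested genes was not computed, so no difference is read from this count. Laptm5 was among the 7, at 2018 FPKM against 854 to 1547 FPKM in the other Gr-1- libraries.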

How the data were processed

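Cells were sorted by the authors as Gr-1+ or Gr-1- CD11b+ blood monocytes, and about 100000 cells per library gave RNA for SMART-Seq v4 cDNA, per the labels' protocols. The authors deposited 1 file per library with an FPKM value for each of 23234 gene symbols; TopHat2 2.0.8, Cufflinks 2.1.1 and the mm9 build are listed in the submitters' processing notes. The annotation and settings are not given in the sources used here. All value columns were used (0 left out).

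Differences were fitted on log2(FPKM + 1) with limma 3.58.1 in R 4.3.3 (lmFit, eBayes with trend) over all genes averaging 1 FPKM or more and a value above 0 in at least 2 fitted libraries, with Benjamini-Hochberg adjustment over all of them and calls at 0.05. Every adjusted p is from limma. Folds are ratios of geometric means of FPKM + 1, which understates the change of low genes. The fit was tested on simulated data. Alternatives changed the pseudocount, filter, scaling, library weights, covariates and libraries. Sequences came from RefSeq for GRCm38.p6, not the mm9 build of the files, and were matched by symbol.

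All 36 genes were named, with Fcgr2b and Itgam, the highest gene of each marker list and, of each other pathway list, up to 4 genes with the smallest p for the subsets and up to 2 for deletion. The 36 genes and all lists were chosen with earlier results of these data known. The gene pairs set in ratios followed no rule fixed in advance, so their ranges are a description and not a test. The picks for deletion (Aga, Arsb, Atp6v0b, Atp6v1g1, Cst7, Cstb, Gga2, Lamtor2, Lmbrd1 and Tmem192) did not pass that test. 1 gene of the B cell list is not reported here.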

Additional observations from a re-analysis of the deposited data

Results flagged for a closer look

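Of 72 groups examined (36 genes in each subset), 3 had a library far from the others by Dixon's test, where chance flags about 1 in 20 groups, and all 3 were CD19Cre libraries. The count is not above that rate. The share over all tested genes was not computed, so no trait of these genes is read from it. Ctsc in the CD19Cre Gr-1+ library was at 2585 FPKM, against 576 to 660.5 FPKM in the other 3 Gr-1+ libraries. Ctsc in the CD19Cre Gr-1- library was at 506 FPKM, against 131 to 169.7 FPKM in the other 4. Ctsz in the CD19Cre Gr-1- library was at 972 FPKM, against 358 to 524 FPKM.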

How the results depend on the processing

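No paired analysis was possible because replicate numbers stand only in the labels of the null libraries, and the subsets share fewer than 2 of them; the fit within genotypes, with genotype as a block, is given as such. Of the 36 genes, 10 were higher in Gr-1+ (8.84% of all genes), against 4 with the upper quartile scaling (4.93%) and 5 without the CD11cCre and floxed libraries (4.95%). Higher in Gr-1- was 1 (5.95%), against 0 with a minimum of 5 FPKM (5.84%) and 3 with the upper quartile (11.1%). It was 2 with a common sum (9.31%), library weights (9.81%), the genotype block (9.97%) or median-ratio scaling (9.09%). Over all genes the subset comparison called 1544, against 2376 with weights, 2712 with the block and 965 without CD11cCre and floxed.

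For deletion, 0 were called in either direction. Higher in deleted were 1 with weights (3.26% of all genes) and 0 to 1 when leaving out 1 library each (1 without floxed, 7.68%). Without floxed there were 1 with a common sum (13.8%), 3 with the upper quartile (18.3%) and 2 with median-ratio scaling (17.4%). Higher in intact were 2 with weights (3.19% of all genes) and 0 to 10 when leaving out 1 library each (10 without floxed, 16.8%). Without floxed there were 11 (14.1%), 2 (1.51%) and 9 (11.4%) with the same scalings. Over all genes 0 were called, against 673 with weights, 5 without both CD19Cre libraries, 12 in Gr-1- alone, 0 to 2551 when leaving out 1 library each (2551 without floxed), and 2906, 2068 and 2998 without floxed with those scalings.

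The interaction called 9 genes, against 5 with a pseudocount of 5, the upper quartile or median-ratio scaling and 7 to 18 when leaving out 1 library each; it could not be fitted without CD19Cre of Gr-1+ or without both CD19Cre libraries. The cause of these changes was not tested, beyond the fewer libraries fitted. No single gene reversed its direction while called; of the single-gene values under alternatives in the subset comparison, 675 kept their side of the threshold, 26 passed it newly and 16 lost it. Median-ratio scaling, alone and without floxed, and the other scalings without floxed were chosen after seeing the data. FPKM without counts gives no depth, so low genes such as Ctsk carry no detection limit.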
